A study of Mus musculus with 23 samples.

Results

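The genes described here are the core machinery of macroautophagy, 51 genes of the 35825 in the expression table of retinal microglia. They were taken from a list of named genes by their role in the pathway and not by a cut on their values, although earlier results of these data were known when the list was chosen. All 51 were found: 5 initiation genes, 7 nucleation genes, 6 genes of phagophore supply and expansion, 16 conjugation genes, 13 fusion genes and 4 upstream regulators. RNA was measured in 23 libraries of GFP+ cells that were sorted from mouse retinas by flow cytometry. WT were CX3CR1-GFP mice, in which GFP replaces Cx3cr1 coding sequence and marks microglia, and KO were Spp1 KO; CX3CR1-GFP mice, from a cross of heterozygous CX3CR1-GFP mice with mice homozygous for the Spp1 deletion. Every group therefore carried the Cx3cr1-GFP allele. Spp1 encodes osteopontin, a secreted phosphoprotein. By the mice's description its deletion is germline and not limited to microglia, but the Spp1 level of 6 of the 12 libraries labelled KO, given below, goes against that label. WT and KO therefore stand throughout for the labels of the libraries. Each genotype was sampled naïve (4 WT and 4 KO libraries), 4 weeks after elevation of the intraocular pressure (IOP) by microbeads injected into the anterior chamber (4 and 4), and on day 7 after crush of the optic nerve (ONC, 3 and 4). By the study's methods the mice were of both sexes and matched for age and strain. Their age and the sex behind each library were not given in the sources used here, and each sort drew on the pooled retinas of multiple animals. The study asked how loss of SPP1 changes microglia under these injuries.

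Macroautophagy encloses cytoplasm, aggregates and damaged organelles in a double membrane and delivers them to lysosomes. Starvation or damage releases the ULK1 kinase complex from inhibition by mTORC1, the ULK1 complex activates a lipid kinase complex around VPS34 and Beclin 1, and the growing phagophore is supplied with lipid by ATG2 and ATG9. A pair of ubiquitin-like conjugation systems then attaches LC3 and GABARAP proteins to the membrane, and SNARE proteins, RAB7 and the HOPS complex fuse the closed autophagosome with lysosomes. In microglia the pathway also serves the breakdown of engulfed debris and protein aggregates. It is regulated largely by phosphorylation and by turnover of its proteins, so mRNA levels are not a measure of autophagic flux.

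Depth was similar across libraries, with 22180480 to 30296094 reads on genes (median 26914869). All 51 genes were at or above 10 normalized counts, that is reads rescaled for the depth of each library, in all 23 libraries, so every one was tested. Several libraries stood apart. Spp1 was above 100 normalized counts in 6 of the 12 KO libraries: 350.2 in KO naïve replicate 1, 810.7 and 761 in KO IOP replicates 2 and 4, and 4750.4, 6811 and 6226 in KO ONC replicates 1, 2 and 4. In the other KO libraries it was between 6.78 and 81.6, against 334 to 1518 in WT naïve, 1343 to 2772 in WT IOP and 14557 to 22906 in WT ONC libraries. The 3 KO ONC libraries above 100 thus held more Spp1 than any WT naïve or WT IOP library, and every direction drawn from KO libraries rests on their labels. Cx3cr1 was at 952 to 1233 normalized counts in the 4 KO IOP libraries and at 9417 or more in all other libraries. The 10 microglial markers, among them P2ry12, Tmem119 and Csf1r, were above 0 in every library and together held 1.12, 1.40 and 1.55% of normalized counts in KO naïve replicates 1, 2 and 4, and 1.76 and 1.95% in WT IOP replicates 1 and 4. They held 2.38 to 3.45% in the other 18 libraries, KO naïve replicate 3 included (3.28%). The 12 rod photoreceptor markers, likewise above 0 throughout, held 3.18 to 3.76% in KO naïve replicates 1, 2 and 4 and 0.524 to 2.82% elsewhere. Lens crystallin and membrane markers held 0.114 to 0.879% in WT IOP libraries and at most 0.011% in all others.

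After ONC in WT mice, 10 of the 51 autophagy genes changed, 5 up and 5 down, where a called gene had an adjusted p under 0.05 (limma, Benjamini-Hochberg over 17102 genes) and an absolute log2 fold change over 0.58. These were 19.6% of the members, beside 18.1% of all genes tested, of which 7.55% rose and 10.5% fell. The median log2 fold change was -0.08 over the members and -0.10 over all genes. In bulk RNA, fewer cells of a type and less RNA per cell cannot be told apart. Markers of other cells moved in the same comparison. Limma called 5 of 6 ganglion cell markers, 4 of 4 amacrine markers and 4 of 6 markers of monocytes and border macrophages lower after ONC, and 11 of 12 rod markers had negative fold changes. The ganglion cell markers together held 0.0342 to 0.0494% of normalized counts in WT naïve and 0.00146 to 0.00892% in WT ONC libraries, and those of monocytes and border macrophages 0.0399 to 0.0843% and 0.00203 to 0.00777%. With the rod marker level as a covariate 11 members were called, and the part of the other markers was not tested. Leaving out WT ONC replicate 1 left 6 members called (11.8%, beside 8.53% of all genes), and leaving out WT ONC replicate 2 gave 15 (29.4%, beside 30.5%).

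After ONC in KO mice, 12 members changed, 11 up and 1 down, or 23.5% of them beside 23.6% of all genes (12.7% higher and 11% lower). The members' median was 0.16 against -0.12 over all genes. The 11 against 1 split became 7 against 2 after upper-quartile rescaling and 7 against 4 after quantile normalization. In this comparison all 10 microglial markers were higher and all 12 rod markers were lower after ONC. Without the 5 libraries under 2% microglial markers, which left KO naïve replicate 3 as the only naïve KO library, limma called 0 members (8 at an unadjusted p under 0.05) and 112 genes of the whole table, against 4043 with all libraries. With the 6 KO libraries above 100 for Spp1 left out, which left 3 naïve and 1 ONC library, limma called 0 members (8 at an unadjusted p under 0.05). With the rod marker level as a covariate it called 1 member, Vamp8, and 498 genes of the whole table.

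IOP elevation moved few of the genes past the threshold. In WT mice 1 member fell and 0 rose, 1.96% of the members beside 1.56% of all genes (0.719% lower). Yet 39 of 51 fold changes were negative, the median being -0.18 against -0.02 over all genes, and all 10 microglial markers were lower while 11 of 12 rod and 6 of 6 lens markers were higher. In KO mice 2 members rose and 0 fell, 3.92% beside 7.88% of all genes (5.06% higher). The members' median in KO mice was 0.06 against -0.12 over all genes, 9 of 10 microglial markers were higher, Cx3cr1 being the exception, and all 12 rod markers were lower. All 4 Y chromosome markers were called lower in KO IOP libraries, where they held 0.000367 to 0.000636% of normalized counts against 0.000701 to 0.0236% in KO naïve libraries. In WT IOP libraries they held 0.00532 to 0.0195%. A different mix of sexes therefore cannot be told apart from the KO IOP group in any comparison that uses it. Y marker content was uneven in other groups too. It was 0.0125, 0.000622 and 0.000334% in WT ONC replicates 1 to 3 and 0.00927 to 0.0166% in KO ONC libraries. WT naïve libraries held 0.000413 to 0.0217%. KO naïve replicate 3 held 0.000701%, against 0.0155 to 0.0236% in KO naïve replicates 1, 2 and 4. Limma called 0 members in KO mice with the compared groups alone (10 at an unadjusted p under 0.05, 5 genes called in the whole table), with the Y chromosome covariate (6, and 8 genes), with the rod covariate (2, and 9 genes), without the libraries under 2% microglial markers (2, and 13 genes) and without the KO libraries above 100 for Spp1 (4, and 16 genes). The 2 injuries of a genotype were compared with the same naïve libraries.

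**Figure D1:**
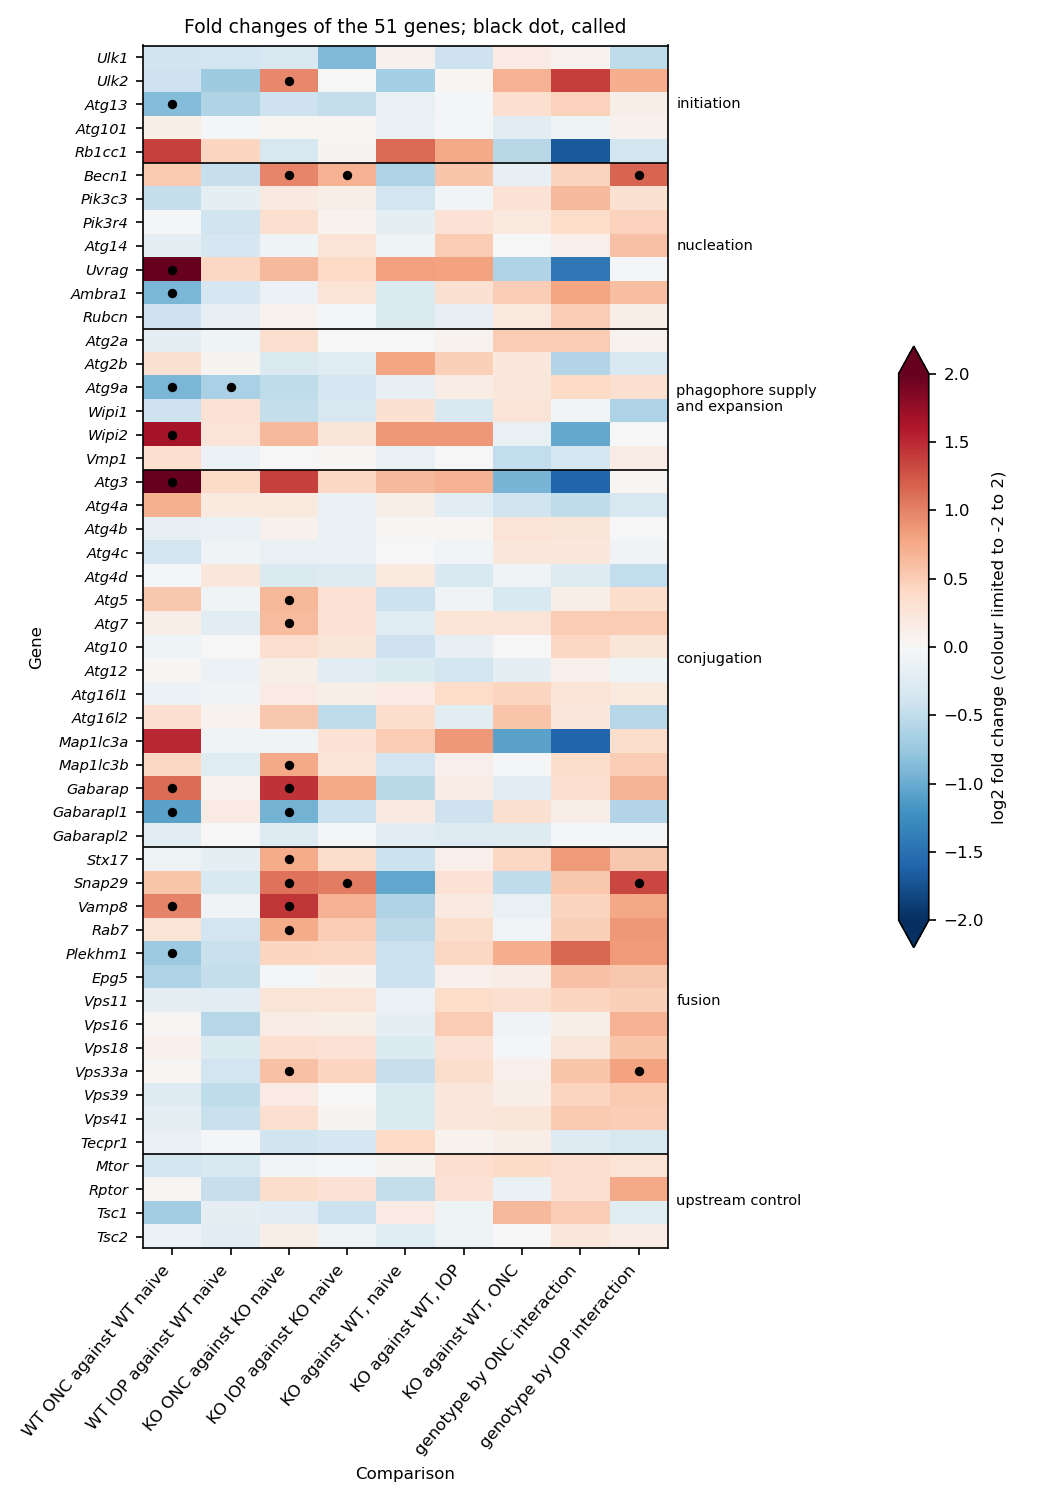
Log2 fold changes of the 51 genes (rows, by role) in the 9 comparisons (columns), as colours on the scale given at the side, with a black dot on each of the 28 called values. The dots gather in the 2 ONC columns, 10 in WT and 12 in KO, while the 3 columns of KO against WT hold 0.

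Over the 9 comparisons, limma called 19 members at least once, 28 calls in all, and did not call the other 32. Of these 32, edgeR called 0 and DESeq2 2, Atg4a and Rb1cc1, both after ONC in WT mice, and 13 were called under at least 1 alternative that kept the fold threshold. The mean log2 value of the 51 genes was 10.43 to 10.58 in WT naïve, 10.36 to 10.47 in KO naïve, 10.30 to 10.40 in WT IOP, 10.38 to 10.60 in KO IOP, 10.55 to 10.67 in WT ONC and 10.52 to 10.75 in KO ONC libraries. The groups with the lowest and highest means, WT IOP and KO ONC, did not overlap. Neighbouring groups in the order did, with a within-group SD of 0.08.

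**Figure D2:**
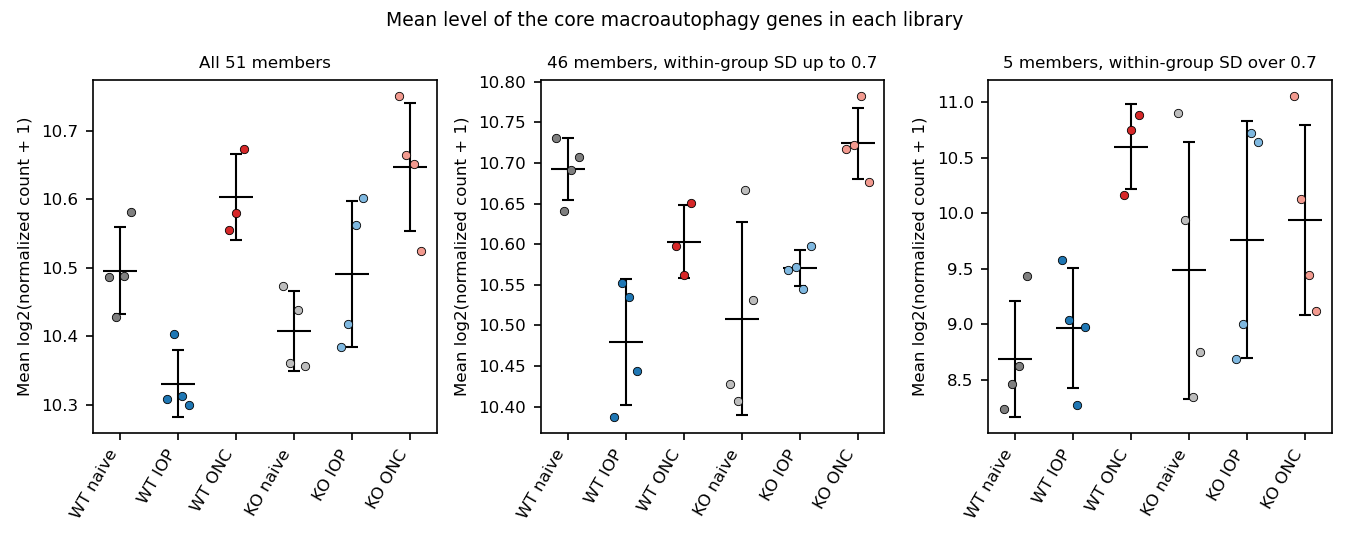
Mean log2(normalized count + 1) per library (points) in the 6 groups, with the group mean and SD as bars, for all 51 genes, for the 46 with a within-group SD of at most 0.7 and for the 5 above it. The 46 genes stay between 10.39 and 10.78 in every library, while the 5 range from 8.24 to 11.06.

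Of the initiation genes, Atg13 fell after ONC in WT mice and Ulk2 rose after ONC in KO mice. Atg13, the scaffold subunit of the ULK1 complex (chr2:91674618-91710576, GRCm38, minus strand), was at 2447, 2518, 1977 and 2566 normalized counts in WT naïve replicates 1 to 4 and at 1244, 1533 and 1135 after ONC. Every ONC library lay below every naïve one, with a log2 fold change of -0.87 ± 0.17 (SE, n = 4 and 3, adjusted p = 0.0012), and the call was kept without any of the 7 libraries. In WT IOP libraries Atg13 was at 1323, 1566, 2063 and 1409, of which replicate 3 reached into the naïve range (-0.59 ± 0.16, adjusted p = 0.0606). KO naïve libraries had 2250, 2095, 1945 and 2268, KO ONC libraries 1899.9, 1498, 1393 and 1683, and KO IOP libraries 1343, 1549, 1473 and 1823. In KO mice all injured libraries were below all naïve ones, with differences of -0.41 ± 0.16 after ONC (adjusted p = 0.0613) and -0.47 ± 0.16 after IOP elevation (adjusted p = 0.0632).

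Ulk2, a kinase closely related to Ulk1, was at 527, 434, 688 and 569 normalized counts in KO naïve libraries and at 1286, 1086, 1017 and 921 in KO ONC libraries. The groups did not overlap, and the log2 fold change was 0.97 ± 0.25 (adjusted p = 0.00755), or 0.64 without the libraries under 2% microglial markers. In WT mice it was at 702, 882, 1131 and 848 in naïve and at 646, 459 and 964 in ONC libraries, which overlapped (-0.41 ± 0.27, adjusted p = 0.294). After IOP elevation it was at 464, 654, 585 and 460.0 in WT libraries, all below naïve, with an adjusted p of 0.186. The catalytic kinase gene Ulk1 was at 393, 585, 514 and 625 in WT naïve and at 217, 816 and 347 in WT ONC libraries, which overlapped at a wide spread. KO naïve libraries had 527, 676, 345 and 782 for Ulk1 and KO IOP libraries 327, 264, 189.7 and 494, and this overlapping pair gave its lowest adjusted p over the 9 comparisons (-0.89 ± 0.35, 0.11). Atg101, which stabilizes Atg13 in the complex, had absolute log2 fold changes of at most 0.22.

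Becn1 (chr11:101285952-101302286, minus strand), the Beclin 1 subunit shared by the VPS34 complexes, was called in 3 of the 9 comparisons, as was Snap29. It was at 2203, 1891, 2844 and 2114 normalized counts in KO naïve, 3988, 4986, 4788 and 3983 in KO ONC and 3856, 3300.0, 3717 and 3690 in KO IOP libraries. Both injured KO groups lay above all KO naïve libraries, with log2 fold changes of 0.98 ± 0.17 after ONC (adjusted p = 0.000376) and 0.70 ± 0.17 after IOP elevation (adjusted p = 0.0231). The ONC call was kept without any single library, whereas the IOP call was lost without KO naïve replicate 1, 2 or 4 or KO IOP replicate 3. In WT mice it went from 3323, 3716, 3282 and 3392 in naïve libraries to 7367, 3765 and 4346 after ONC and to 2147, 2832, 2604 and 2367 after IOP elevation. The WT ONC libraries were all above naïve (0.53 ± 0.19, adjusted p = 0.0508) and the WT IOP libraries all below (-0.47 ± 0.17, adjusted p = 0.214). Without the libraries under 2% microglial markers the KO ONC difference was 0.63 and the KO IOP difference 0.35, and neither was called.

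Ambra1, which binds Beclin 1 and promotes complex assembly, was at 1916, 1584, 1731 and 1610.3 in WT naïve and at 666, 1063 and 1053 in WT ONC libraries. All 3 ONC libraries were below naïve (-0.91 ± 0.20, adjusted p = 0.0035), a call kept without any single library. In KO mice the ONC libraries, at 1372, 1101, 1439 and 1212, overlapped the naïve ones at 1081, 1222, 1573 and 1789.9 (-0.12 ± 0.19, adjusted p = 0.655). Uvrag, the subunit of the VPS34 complex that acts in endosome and autophagosome maturation, was at 312, 341, 421 and 819 in WT naïve and at 1604, 1812 and 2143 in WT ONC libraries. It was higher in every ONC library (2.07 ± 0.61, adjusted p = 0.0222), and the call was lost without WT naïve replicate 1 or 2 or WT ONC replicate 1 or 3. In KO mice Uvrag ran from 305 to 1606 in naïve and from 513 to 2348 in ONC libraries, and these overlapped.

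Rubcn, whose product Rubicon restrains autophagosome maturation, was at 1869, 1311, 1679.8 and 1875 in WT naïve, 905, 1334 and 1599 in WT ONC and 1096, 1861, 1644 and 1438 in WT IOP libraries. KO libraries ranged from 1083 to 1702, all groups overlapped, and the lowest adjusted p was 0.18. Atg14, which directs the VPS34 complex to the phagophore, was tested with a lowest adjusted p of 0.126. Pik3c3, the gene of VPS34 itself, passed the adjusted p but not the fold after ONC in WT mice (-0.48, adjusted p = 0.0485). Pik3r4, its regulatory partner, had a lowest adjusted p of 0.359.

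Atg9a (chr1:75180860-75192196, minus strand), the transmembrane lipid scramblase whose vesicles seed the phagophore, was lower after both injuries in WT mice. It was at 2504, 2466, 2584 and 2156 in WT naïve, 1229, 1365 and 1281 in WT ONC and 1220.1, 1781, 1900.1 and 1394 in WT IOP libraries. No injured WT library reached the naïve range, and the log2 fold changes were -0.91 ± 0.16 after ONC (adjusted p = 0.000476) and -0.64 ± 0.15 after IOP elevation (adjusted p = 0.0289). The ONC call was kept without any single library. The IOP call, the only one among the 51 in that comparison, was lost after quantile normalization (-0.57) and without WT naïve replicate 1, 2 or 3 or WT IOP replicate 1 or 4, and the difference was -0.40 without the 2 WT IOP libraries under 2% microglial markers. In KO mice naïve libraries had 2359, 2158, 1698 and 2559, ONC libraries 1494, 1471, 1419.8 and 1699.7 and IOP libraries 1769, 1636, 1665 and 1838. KO naïve replicate 3 overlapped both injured groups, and the ONC difference of -0.51 ± 0.15 passed the adjusted p (0.015) but not the fold.

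Wipi2, the phosphoinositide reader that recruits the conjugation complex, was at 352, 466, 757 and 1977 in WT naïve and at 2172, 2817 and 1841 in WT ONC libraries. WT naïve replicate 4 overlapped the ONC libraries, the log2 fold change was 1.67 ± 0.53 (adjusted p = 0.0312), and the call was lost without 6 of the 7 libraries in turn, all but that naïve replicate. Vmp1, a scramblase of the endoplasmic reticulum needed for phagophore growth, was at 3085, 3316, 2938 and 3179.8 in WT naïve and at 5997, 2671 and 3818 in WT ONC libraries. WT ONC replicate 1 was far above and replicate 2 below the naïve libraries (0.33 ± 0.18, adjusted p = 0.206). Vmp1 ranged narrowly after IOP elevation, at 2792 to 2944 in WT IOP and 2831 to 2922 in KO IOP libraries. The lipid transfer genes Atg2a and Atg2b and the phosphoinositide reader Wipi1 had lowest adjusted p values of 0.261, 0.354 and 0.111.

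Among the 11 enzymes and scaffolds of the conjugation systems, Atg3 was called after ONC in WT mice and Atg5 and Atg7 after ONC in KO mice. Atg3, the E2-like enzyme that passes LC3 to phosphatidylethanolamine, was at 178, 258, 219.6 and 678 in WT naïve and at 2169, 1933 and 2658 in WT ONC libraries. The ONC libraries were well above every naïve one (2.95 ± 0.81, adjusted p = 0.0144), and the call was lost without WT ONC replicate 1 or 3. In KO mice Atg3 was at 1933, 654, 186 and 178 in naïve and at 2359.6, 1615, 915 and 543 in ONC libraries, which overlapped (1.37 ± 0.75, adjusted p = 0.185).

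Atg7, the E1-like enzyme of both systems, was at 827, 886, 1369.7 and 857 in KO naïve and at 1753, 1315, 1458 and 1514 in KO ONC libraries. KO naïve replicate 3 overlapped KO ONC replicate 2, and the log2 fold change was 0.64 ± 0.19 (adjusted p = 0.0161), 0.13 without the libraries under 2% microglial markers. WT libraries of Atg7 ranged from 1011 to 1213 naïve, 1038 to 1442 after ONC and 733 to 1181 after IOP elevation, which overlapped. Atg5, which joins Atg12 in the conjugate that marks the membrane for LC3, was at 1212, 1229, 1943 and 1331 in KO naïve and at 2206, 2441, 2455 and 1830.2 in KO ONC libraries. KO naïve replicate 3 again overlapped, and the difference of 0.66 ± 0.24 (adjusted p = 0.0489) was lost without any of 6 of the 8 libraries, and was -0.020 with the rod marker level as a covariate. The libraries whose loss ended the call were KO naïve replicates 1, 2 and 4 and KO ONC replicate 1 for Atg7, and in addition KO ONC replicates 2 and 3 for Atg5. The other 8 genes, the proteases Atg4a to Atg4d, the E2-like Atg10, the ubiquitin-like Atg12 and the scaffolds Atg16l1 and Atg16l2, were not called by limma with all libraries, with lowest adjusted p values of 0.0909 for Atg4a to 0.659 for Atg16l1. Of these 8, Atg4a was called after ONC in WT mice by DESeq2, with the lens covariate and without WT ONC replicate 2.

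Gabarap and Gabarapl1, 2 members of the ubiquitin-like family that is attached to the autophagosome membrane, moved in opposite directions after ONC in both genotypes. Gabarap (chr11:69991143-69994951, plus strand) was at 5506, 5432, 5155 and 5554 in WT naïve and at 20768, 6907 and 11288 in WT ONC libraries. The 3 ONC libraries were spread widely but all lay above naïve (1.12 ± 0.25, adjusted p = 0.00398). In KO mice it was at 3333, 3212, 5339 and 3356 in naïve and at 10598, 12529, 9937 and 7842 in ONC libraries, again with no overlap (1.44 ± 0.23, adjusted p = 0.000188). After IOP elevation WT libraries, at 5866, 6009, 4836 and 6015, overlapped naïve ones, and KO libraries, at 5592, 6155, 7189 and 6216, were above all KO naïve libraries without passing the test (0.75 ± 0.23, adjusted p = 0.0505).

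Gabarapl1 (chr6:129533160-129542346, plus strand) fell from 4014, 2884, 3716 and 3554 in WT naïve to 1566, 2108 and 1425 in WT ONC libraries. In KO mice it went from 3909, 4167, 3465 and 4491 to 1839, 1922, 2246 and 2359.7. All ONC libraries of both genotypes were below all naïve ones, with log2 fold changes of -1.07 ± 0.18 in WT (adjusted p = 0.000245) and -0.94 ± 0.16 in KO (adjusted p = 0.000369). The calls of both genes were kept in both genotypes without any single library. Without the libraries under 2% microglial markers the KO values were 0.92 for Gabarap and -0.74 for Gabarapl1, and neither was called.

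The ratio of Gabarap to Gabarapl1 normalized counts, a measure chosen after these values were seen and therefore not tested, was 1.37, 1.88, 1.39 and 1.56 in WT naïve and 13.3, 3.28 and 7.92 in WT ONC libraries. In KO mice it was 0.853, 0.771, 1.54 and 0.747 in naïve and 5.76, 6.52, 4.42 and 3.32 in ONC libraries. All 7 ONC libraries were above all 8 naïve libraries. KO IOP libraries, at 1.73, 2.15, 2.55 and 2.13, were above KO naïve ones, while WT IOP libraries, at 1.30, 1.92, 1.45 and 1.20, overlapped WT naïve ones. Per kb of exon, Gabarap made up 36.8 ± 1.89% (SD) of the 5 family members in WT naïve and 56.5 ± 8.52% in WT ONC libraries, and 28.9 ± 6.27% and 55.5 ± 4.26% in KO naïve and KO ONC libraries. Gabarapl1 made up 22.0 ± 2.14% and 8.14 ± 4.61% in WT and 28.3 ± 5.10% and 10.7 ± 2.66% in KO libraries. The length of a gene was that of all its annotated exons merged, so the size of each share depends on the annotation.

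**Figure D3:**
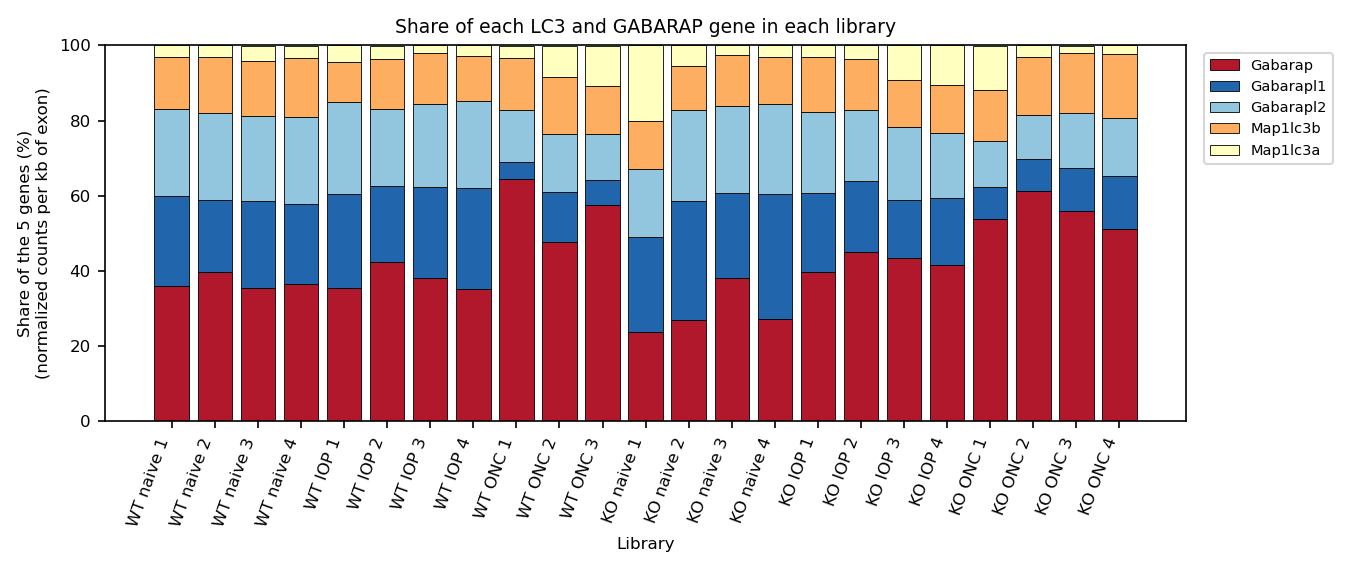
Share of each of the 5 LC3 and GABARAP genes in their summed normalized counts per kb of exon (stacked bars, percent) in each of the 23 libraries. Gabarap takes 47.6 to 64.6% in WT ONC libraries and 35.4 to 39.6% in WT naïve ones.

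Map1lc3b, the LC3 gene most used to read the pathway, was at 7332, 5744, 7785 and 6403 in KO naïve and at 10824, 12872, 11637 and 10684 in KO ONC libraries. The groups did not overlap (0.76 ± 0.17, adjusted p = 0.00216), and the call was kept without any single library. It was lost after quantile normalization (0.28), with the rod marker level as a covariate (0.44), without the libraries under 2% microglial markers (0.56) and without the KO libraries above 100 for Spp1 (0.82). In WT mice naïve libraries had 8654, 8383, 8751 and 9729, ONC libraries 18180.2, 9001 and 10138 and IOP libraries 7149, 7647, 6985 and 8273. ONC replicate 2 overlapped naïve (0.42 ± 0.18, adjusted p = 0.106), and the IOP libraries were all below naïve (-0.24 ± 0.17, adjusted p = 0.57). Gabarapl2, a further family member, was at 4507, 4023, 4145 and 4425 in WT naïve and at 5633, 2824 and 3044 in WT ONC libraries, with ONC replicate 1 above and the other two below. It was at 3191, 3651, 4124 and 3748 in KO naïve and at 3001, 3028, 3231 and 2998 in KO ONC libraries, with an adjusted p of 0.299. Map1lc3a, the LC3A gene, was at 297, 261, 375 and 333 in WT naïve and at 667, 785 and 1371 in WT ONC libraries, all higher, with an adjusted p of 0.117 at a large spread elsewhere (1826, 412, 227 and 235 in KO naïve and 1508, 412, 229 and 229.6 in KO ONC libraries).

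Of the 13 fusion genes, 5 rose after ONC in KO mice (38.5%, beside 12.7% of all genes higher), and 1 rose and 1 fell in WT mice (15.4%, beside 18.1% called in either direction). Of the 5, Vamp8 alone was called with the rod marker level as a covariate, and Rab7, Snap29, Stx17 and Vps33a were not. The interaction of genotype and ONC called 0 fusion genes by limma, edgeR or DESeq2 (4 at an unadjusted p under 0.05 in limma), so the counts of the 2 genotypes were not shown to differ. Vamp8 (chr6:72385223-72390703, minus strand), the lysosomal SNARE of autophagosome fusion, was at 3563, 3309, 3134 and 3603 in WT naïve and at 12237, 4435 and 5669 in WT ONC libraries. It was higher in every ONC library (0.99 ± 0.25, adjusted p = 0.00844), and the call was lost without WT ONC replicate 1. In KO mice Vamp8 went from 2346, 1723, 3281 and 1933 to 5916, 6731, 6158 and 5572, with no overlap (1.43 ± 0.23, adjusted p = 0.000164). This KO call was kept without any single library and with the rod marker level as a covariate (0.73), and was lost without the libraries under 2% microglial markers (0.89).

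Snap29, the SNARE that links Stx17 to Vamp8, was at 185, 214, 529 and 241 in KO naïve, 634, 558, 648 and 449 in KO ONC and 424, 731, 456 and 623 in KO IOP libraries. KO naïve replicate 3 reached into both injured groups, and the log2 fold changes were 1.08 ± 0.30 after ONC (adjusted p = 0.0105) and 1.03 ± 0.30 after IOP elevation (adjusted p = 0.039). They were 0.10 and 0.04 without the libraries under 2% microglial markers, of which the naïve KO group keeps that replicate alone. The IOP call was also lost without KO naïve replicate 1, 2 or 4 or KO IOP replicate 2, 3 or 4. In WT mice Snap29 was at 662, 373, 615 and 601 naïve, 1036, 582 and 868 after ONC and 400.3, 476, 581 and 350.1 after IOP elevation, with overlap in both comparisons.

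Stx17, the SNARE of the autophagosome membrane, was at 506, 463, 526 and 598 in KO naïve and at 843, 871, 815 and 966 in KO ONC libraries. The groups were apart (0.74 ± 0.24, adjusted p = 0.0293), although the call was lost without KO naïve replicate 1 or 2 or any KO ONC library. With the rod marker level as a covariate Stx17 was at 0.72 and not called (limma, adjusted p = 0.305). Without the libraries under 2% microglial markers its difference was 0.73. WT libraries of Stx17 overlapped, at 588 to 871 naïve and 588 to 759 after ONC. Rab7, the small GTPase of late endosomes and lysosomes, was at 7365, 5892, 11236 and 6276 in KO naïve and at 11663, 13249, 14288 and 11009.9 in KO ONC libraries. KO naïve replicate 3 overlapped the ONC libraries (0.75 ± 0.20, adjusted p = 0.00802), and the difference was 0.15 without the libraries under 2% microglial markers. In WT mice Rab7 was at 10003 to 11448 in naïve, 9135 to 18219 in ONC and 7283 to 9286 in IOP libraries, of which the IOP libraries were all below naïve (-0.38 ± 0.20, adjusted p = 0.419).

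Plekhm1, an adaptor between RAB7 and HOPS, was the fusion gene that fell after ONC in WT mice. It was at 982, 1219, 1178 and 1183 in WT naïve and at 419, 771 and 1006 in WT ONC libraries. ONC replicate 3 overlapped naïve replicate 1, the log2 fold change was -0.72 ± 0.25 (adjusted p = 0.0465), and the call was lost without any WT naïve library or without WT ONC replicate 1. In KO mice ONC libraries, at 1397, 964, 989 and 1246, overlapped naïve ones at 689, 684, 1026 and 1040.3.

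Vps33a, the SNARE-binding subunit of HOPS, was at 1889, 2112, 2710.4 and 2445 in KO naïve and at 3083, 3250.1, 4219.6 and 3185 in KO ONC libraries. The ONC libraries were all higher (0.59 ± 0.16, adjusted p = 0.012), and the call was lost without KO naïve replicate 1 or 2 or KO ONC replicate 3. KO IOP libraries, at 3145, 3028, 3121 and 2937, were also all above KO naïve ones (0.43 ± 0.16, adjusted p = 0.0963). In WT mice Vps33a was at 3253, 2842, 3601 and 2861 naïve and at 2048, 2411, 3325 and 2035 after IOP elevation, which overlapped. The HOPS subunit Vps41 passed the adjusted p in KO ONC libraries at a small difference (4838, 4946, 4842 and 4557 against 3586, 3690.5, 3965 and 4061 naïve, 0.33 ± 0.12, adjusted p = 0.0422). The other fusion genes, namely Vps11, Vps16, Vps18 and Vps39 of HOPS or its shared core and the tethers Epg5 and Tecpr1, were not called by limma with all libraries. Tecpr1 was called in KO ONC after quantile normalization, and Vps11 and Vps18 in the IOP interaction without KO naïve replicate 3.

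Promoter sequences are shown for Vps16 and Vps33a because CACGTG, the letters known to be bound by the TFEB and TFE3 family of lysosomal regulators, stood between GT and AC in these 2 promoters and in no other member's window. Of the 51 genes, 42 had a promoter in the RefSeq table (GRCm38.p6, 250 bases before to 50 after the start site). CACGTG, which reads the same on both strands and is contained in the longer palindrome, was in 7 of the 42 (16.7%), namely Atg3, Atg5, Atg7, Atg14, Rubcn, Vps16 and Vps33a, and in 8.09% of 27025 genes. The longer palindrome was in 2 of 42 (4.76%) and in 0.37% of all genes. It starts 20 bases before the start site in Vps16 (chr2:130424070-130424369, plus strand) and 14 bases before it in Vps33a (chr5:123572966-123573265, minus strand), and capitals mark it below. The Vps33a window also holds a further CACGTG upstream of the palindrome, outside the longer letters and left in lower case. A match describes letters in the window and is no measurement of binding.
Vps16: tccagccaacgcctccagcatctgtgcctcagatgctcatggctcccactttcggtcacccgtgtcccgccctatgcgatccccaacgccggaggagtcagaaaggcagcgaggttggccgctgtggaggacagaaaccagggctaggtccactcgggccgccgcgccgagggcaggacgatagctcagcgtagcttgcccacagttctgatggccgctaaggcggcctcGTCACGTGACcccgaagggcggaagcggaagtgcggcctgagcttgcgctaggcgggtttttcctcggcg
Vps33a: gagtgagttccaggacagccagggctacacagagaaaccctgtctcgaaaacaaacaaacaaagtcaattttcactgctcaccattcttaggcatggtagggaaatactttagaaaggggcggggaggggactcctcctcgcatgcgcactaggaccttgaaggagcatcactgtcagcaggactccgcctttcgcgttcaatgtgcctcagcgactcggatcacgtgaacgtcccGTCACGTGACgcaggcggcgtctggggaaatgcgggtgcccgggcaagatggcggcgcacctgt

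The gene pair with this palindrome did not share their calls. Vps33a was called after ONC in KO mice, whereas Vps16 was at 1539.8, 1349, 1614 and 1827 in KO naïve and at 1293, 1993, 1733 and 2081 in KO ONC libraries, which overlapped (0.15 ± 0.19, adjusted p = 0.591). Of the 7 genes with CACGTG, Atg3 was called in WT mice after ONC, Atg5, Atg7 and Vps33a were called in KO mice after ONC, and Atg14, Rubcn and Vps16 were not called by limma with all libraries.

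**Figure D4:**
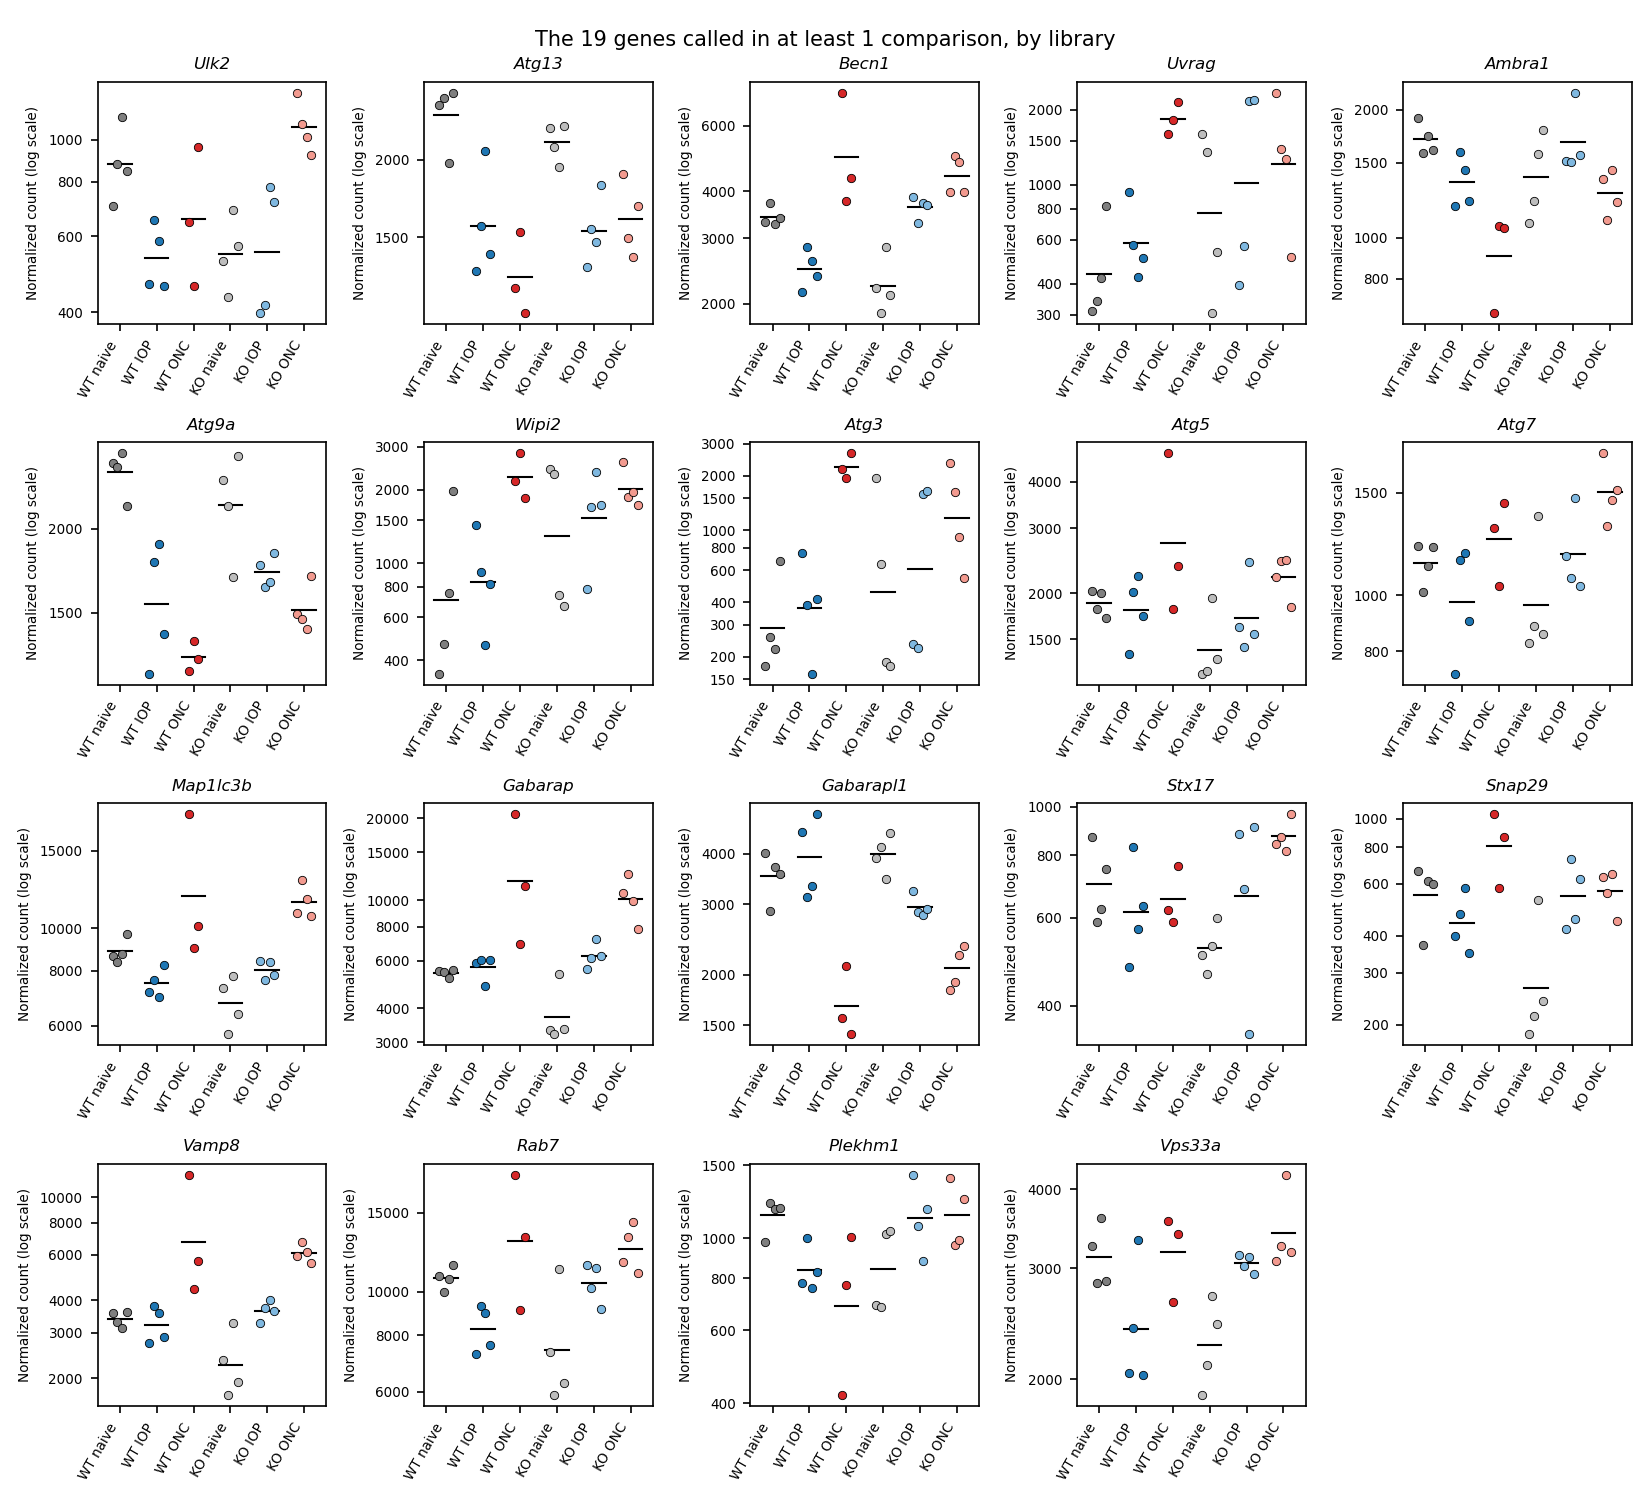
Normalized counts (log axis) of the 19 genes called in at least 1 comparison, with 1 point per library in the 6 groups and a line at the mean of the log2 values. Gabarapl1 shows all 7 ONC libraries below all 8 naïve libraries, while Atg3 spans 161 to 2658.

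The 4 upstream regulators were called in none of the 9 comparisons by limma, edgeR or DESeq2 with all libraries (with limma, 0 or 1 of the 4 had an unadjusted p under 0.05 in each). Mtor, the kinase that holds initiation in check, was at 1808, 1572, 1669 and 1491 in WT naïve, 1125, 1186 and 1504 in WT ONC and 1618, 1211, 1463 and 1050.2 in WT IOP libraries. The injured WT libraries overlapped the naïve ones (lowest adjusted p over the 9 comparisons 0.196), and in KO mice Mtor ranged from 1193 to 2126 across all 3 conditions. Rptor, the mTORC1 scaffold, had its lowest adjusted p of 0.0795 in the genotype by IOP interaction. Tsc1 and Tsc2, which form the complex that inhibits mTORC1, had lowest adjusted p values of 0.0877 and 0.544, and Tsc1 was called after ONC in WT mice with the lens covariate and without WT ONC replicate 2.

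Between KO and WT libraries of the same condition, limma called none of the 51 genes. Here and below, the percentages of all genes are of genes called, whereas the unadjusted p counts are of members alone. The share of all genes at an unadjusted p under 0.05 is not given here. These counts and their directions are therefore not read as a trait of the members. In naïve retinas 0 members were called (11 at an unadjusted p under 0.05, all 11 lower in KO, 0 by edgeR and 1, Becn1, by DESeq2), beside 0.409% of all genes. The members' median was -0.17, the 10 microglial markers were all lower and 11 of 12 rod markers higher in KO naïve libraries. The lowest p values belonged to Becn1 (-0.61 ± 0.17, adjusted p = 0.0853), Snap29 (-1.04 ± 0.30, adjusted p = 0.0895) and Vps33a (-0.46 ± 0.16, adjusted p = 0.163). Of these, Becn1 and Vps33a did not overlap between the genotypes, but they were picked for their low p, and the share of all genes without overlap was not counted. Without KO naïve replicate 3, 5 members were called (9.8%, beside 9.49% of all genes), namely Becn1, Rab7, Rptor, Snap29 and Vamp8.

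After IOP elevation 0 members were called between KO and WT (7 at an unadjusted p under 0.05, 5 of them higher in KO, and 0 by edgeR and by DESeq2), beside 2.11% of all genes. By group means on the log2 scale, all 13 fusion genes were higher in KO IOP than in WT IOP libraries, by 0.07 to 0.51. None of them was called, and the share of all genes higher in KO is not given here. The mean of the fusion genes overlapped, at 10.94 to 11.22 in KO IOP and 10.59 to 11.02 in WT IOP libraries. In KO IOP replicate 3, Epg5 (431) and Stx17 (351) were below every WT IOP library. The median difference was 0.15 over the members and -0.03 over all genes. The lowest p values were those of Becn1 (0.55 ± 0.17, adjusted p = 0.0883), Atg14 (1075, 1347, 725 and 969 in WT against 1423, 1403, 1410.5 and 1456 in KO, 0.50 ± 0.18, adjusted p = 0.126) and Vps16 (1037, 1313, 1479 and 1065 against 1651, 1895, 1582 and 1771, 0.51 ± 0.19, adjusted p = 0.144). None of the 3 overlapped between genotypes, but they were picked for their low p, and the share of all genes without overlap was not counted. Of the microglial markers 9 of 10 were higher in KO IOP libraries and of the rod markers 12 of 12 were lower, and their part in these differences was not tested.

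After ONC 0 members were called between KO and WT (6 at an unadjusted p under 0.05, 5 higher in KO, and 0 by edgeR and by DESeq2), beside 0.0877% of all genes. The lowest p values were those of Plekhm1 (0.72 ± 0.25, adjusted p = 0.347), Vmp1 (-0.50 ± 0.18, adjusted p = 0.375) and Ulk2 (0.70 ± 0.27, adjusted p = 0.417), and all 3 overlapped between genotypes. Without WT ONC replicate 2 there were 2 calls, Tsc1 and Vmp1 (3.92%, beside 4.35% of all genes). The interaction of genotype and ONC also called 0 members (7 at an unadjusted p under 0.05, all positive, 0 by edgeR and 1, Ulk2, by DESeq2), beside 0.0702% of all genes. Its lowest p values were those of Ulk2 (1.38 ± 0.37, adjusted p = 0.139), Plekhm1 (1.15 ± 0.34, adjusted p = 0.17) and Vps41 (0.52 ± 0.17, adjusted p = 0.21). Without KO naïve replicate 3, Plekhm1 and Ulk2 were called in that interaction (3.92%, beside 3.7% of all genes).

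The interaction of genotype and IOP elevation, that is the KO response minus the WT response, called 3 members, all positive, or 5.88% of the members beside 8.75% of all genes (4.85% higher). The KO IOP libraries in it also stood apart by Cx3cr1, at 952 to 1233 normalized counts against 9417 or more in all other libraries. The part of that difference was not tested and cannot be told apart from the group. Becn1 had a difference of responses of 1.17 ± 0.24 (adjusted p = 0.00887), kept without any single library. Snap29 had 1.34 ± 0.42 (adjusted p = 0.0499) and Vps33a 0.81 ± 0.23 (adjusted p = 0.0338), which were lost without 12 and 10 of the 16 libraries in turn. These single libraries were, for both genes, WT naïve replicates 1 and 3, KO naïve replicates 1, 2 and 4, WT IOP replicates 1 and 4 and KO IOP replicates 2 and 3, and in addition WT naïve replicate 4, WT IOP replicate 2 and KO IOP replicate 4 for Snap29 and KO IOP replicate 1 for Vps33a. Without KO naïve replicate 3, 9 members were called (17.6%, beside 18% of all genes), namely Atg14, Becn1, Rab7, Rptor, Snap29, Vamp8, Vps11, Vps18 and Vps33a. Without the libraries under 2% microglial markers the differences were 0.69, 0.11 and 0.32, with 0 of the 51 called by limma and 0 at an unadjusted p under 0.05. With the rod marker level as a covariate 0 members were called (4 at an unadjusted p under 0.05), Becn1 being at 0.68 (adjusted p = 0.165). With the Y chromosome covariate 0 were called (9 at an unadjusted p under 0.05, and 73 genes of the whole table against 1496), and without the KO libraries above 100 for Spp1 also 0 (4).

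Several members varied across libraries with the share of the microglial markers. As a description over the 23 libraries, which share depth and composition, 16 of the 51 genes had a Pearson correlation above 0.5 with that share, 7 of the 13 fusion genes and 1 of the 5 initiation genes among them. The share of all tested genes above 0.5 was not counted, so the 16 are not read as a trait of the members. Ulk1, Atg2b, Gabarapl1 and the fusion gene Tecpr1 went the other way, at -0.60, -0.53, -0.52 and -0.51. These 16 supplied 10 of the 12 calls in KO ONC, both calls in KO IOP, all 3 calls in the IOP interaction and 2 of the 10 calls in WT ONC. The correlations use the same libraries as the calls, and the marker share itself differs between KO naïve and injured KO libraries. The overlap is therefore not independent of the calls, and nothing is drawn from it. The mean log2 value of the 13 fusion genes correlated with the share at r = 0.83 (Spearman 0.58), or 0.77 after removal of the group means, while that of the 5 initiation genes did at -0.28. The mean over all genes tested correlated at -0.80. The fusion mean was 10.62 to 11.10 in KO naïve and 10.59 to 11.02 in WT IOP libraries, the groups that hold the libraries under 2%, and 10.94 to 11.31 in the other 4 groups.

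**Figure D5:**
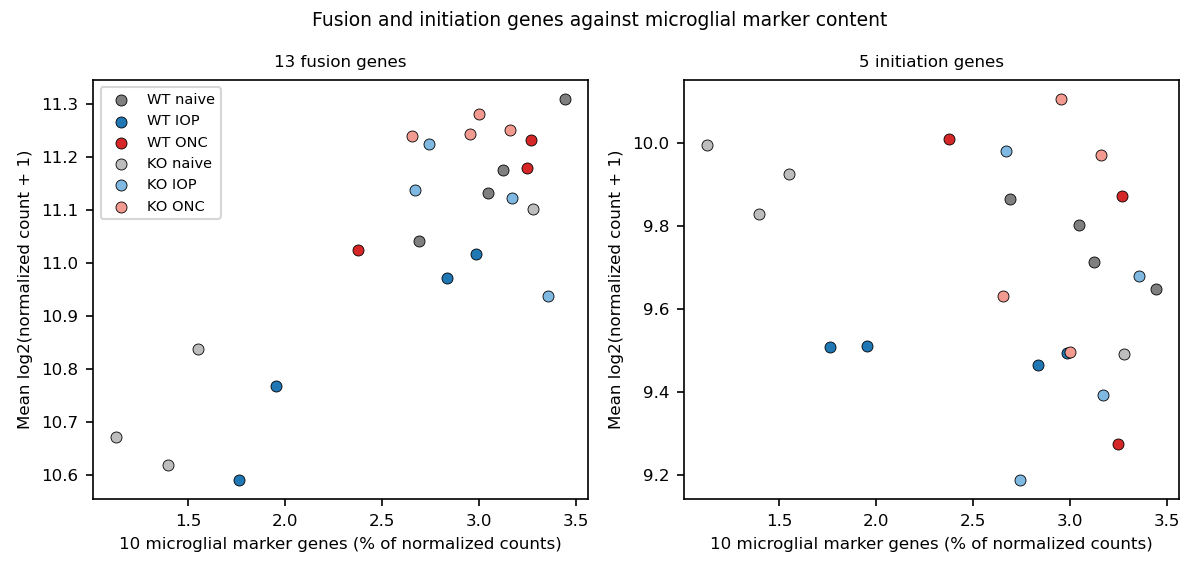
Mean log2(normalized count + 1) of the 13 fusion genes and of the 5 initiation genes against the percentage of normalized counts held by the 10 microglial markers, with 1 point per library coloured by group. The fusion mean is lowest in the libraries under 2% microglial markers, and the initiation mean shows no such order.

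Of the 51 genes, 5 had a within-group SD above 0.7 on the log2 scale, beside 8.62% of 8575 tested genes in the members' range of levels. This set was Atg3, Map1lc3a, Uvrag, Rb1cc1 and Wipi2, at 1.17, 0.96, 0.88, 0.87 and 0.76. The next genes, Atg16l1 and Atg2b, had 0.67 and 0.62, so the threshold falls within a run of values. The median was 0.27 over the 51 and 0.35 over the genes in that range. Atg3 spanned 161 to 2658 normalized counts, a 16.5-fold range. Rb1cc1, the large scaffold of the ULK1 complex also called FIP200, was at 423, 503, 356 and 425 in WT naïve, 392, 1953 and 1699 in WT ONC and 1859, 1067, 379.7 and 983 in KO naïve libraries. The mean log2 value of the 5 genes was highest in KO ONC replicate 1 (11.06), KO naïve replicate 1 (10.90), WT ONC replicates 3 and 2 (10.89 and 10.75) and KO IOP replicates 3 and 4 (10.72 and 10.64), and at most 10.16 in the other 17 libraries. Within groups the 10 pairs among them correlated at 0.36 to 0.93 (median 0.77, 23 libraries), a description of genes picked for their spread. Of the 10 WT ONC calls, 3 (Uvrag, Wipi2 and Atg3) come from this set, whose mean was 10.16 to 10.89 in WT ONC and 8.24 to 9.43 in WT naïve libraries.

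Levels compared per kb of exon placed Rab7 and Gabarap highest, at means of 3995 and 3882 normalized counts per kb over the 23 libraries. Vamp8 (1830 per kb), Gabarapl2 (1632), Gabarapl1 (1544) and Map1lc3b (1206) followed, so the most abundant transcripts were those of the membrane-attached proteins and of fusion. The initiation kinase and its scaffold were near the bottom, with Ulk1 at 70.6 and Rb1cc1 at 61.0 per kb, above Atg16l2 at 40.3.

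Beyond the core, 60 genes of the wider pathway were listed, of which 59 were analysed. After ONC 6 rose and 3 fell in WT mice (15.3% of the 59), and 11 rose and 3 fell in KO mice (23.7%), near the shares of all genes given above. Tfeb, a master regulator of autophagy and lysosome genes, rose in both (1.43 ± 0.43, adjusted p = 0.0236 in WT, and 1.17 ± 0.40, adjusted p = 0.0352 in KO), as did Sh3glb1, a Beclin 1 partner that bends membranes (1.82 in WT and 1.71 in KO), and Rab11a, a GTPase of recycling endosomes (1.13 and 1.38). Snap47, a SNARE, fell in both (-0.93 and -0.88), as did Prkaa2, a catalytic subunit gene of the energy sensor AMPK (-1.43 and -1.74). In WT mice the GTPase Rab24, the Rag GTPase Rragc and Wdr41, a partner of C9orf72, also rose (3.70, 2.28 and 2.27), and the AMPK subunit Prkab1 fell (-0.65). In KO mice the TFEB relatives Tfe3 and Mitf (0.94 and 0.84), the Ragulator subunits Lamtor1, Lamtor4 and Lamtor2 (1.02, 0.89 and 0.72), the SNARE Ykt6 (0.86), the WIPI relative Wdr45b (0.68) and C9orf72 (0.60) rose, and Sesn3, a sestrin that restrains mTORC1, fell (-1.28). The KO calls rest on naïve libraries of which replicates 1, 2 and 4 held 1.12, 1.40 and 1.55% microglial markers. With the rod marker level as a covariate, limma called 498 genes of the whole table after ONC in KO mice, against 4043. Whether the calls of the wider list were kept there is not given here.

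After IOP elevation the wider list held 1 call in WT mice (1.69%, beside 1.56% of all genes), the Ragulator subunit Lamtor5 (1.08), and 4 in KO mice (6.78%, beside 7.88%), Ykt6 (0.85) and Tfe3 (0.69) up and the TRAPP subunit Trappc8 (-0.80) and the mTOR partner Mlst8 (-0.81) down. Between genotypes Ykt6 was lower in KO naïve libraries (-0.90 ± 0.18, adjusted p = 0.0358) and Lamtor5 lower in KO IOP libraries (-1.03 ± 0.27, adjusted p = 0.0493), where 0.409% and 2.11% of all genes were called. The calls of Ykt6 in naïve retinas, in KO mice and in the IOP interaction all use the same KO naïve libraries. The IOP interaction called Ykt6 (1.27), Tbc1d15, which switches off RAB7 (1.05), and Tfe3 (0.93), or 5.08% of the list beside 8.75% of all genes.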

How the data were processed

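RNA of GFP+ retinal microglia was sequenced on a NovaSeq in 23 libraries of 6 groups, each assigned from its sample labels. The deposited signal values are normalized counts, which the authors made by dividing the reads of each gene by a factor for that library, as DESeq2 does. The labels list STAR and DESeq2 with GRCm38 and the study's methods name salmon, so which aligner gave these values is unsure, and versions were not given in the sources used here. Whole reads were recovered in every library (100% of values within 0.01 read), and 3 reads corresponded to 2.41 to 4.03 normalized counts.

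The log2(value + 1) scale was fitted by limma 3.58.1 (R 4.3.3, eBayes with trend) with 1 mean per group and 0 covariates, over the 17102 genes that reached 10 normalized counts in 3 or more libraries. A call needed an adjusted p (Benjamini-Hochberg) under 0.05 together with a log2 fold change beyond 0.58 in size, in 9 comparisons. The alternatives included edgeR 4.0.16 and DESeq2 1.42.0 on the recovered reads, and the procedure was tested on simulated data. The labels do not say that replicates of a group came from separate pools of animals, so p-values measure the spread between libraries, which may be technical.

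The members and lists were chosen with earlier results of these data known. Values of each library are given for members called in at least 1 comparison, for the 3 lowest p where none was called, and for the LC3 and GABARAP family, Atg7, Becn1, Ulk1, Mtor, Rubcn and Vmp1. Replicate numbers did not pair the libraries: of 55 pairs with the same number, 10 had correlated deviations above 0.1. Positions are those of GENCODE M21 (GRCm38), and promoters are those of RefSeq (GRCm38.p6).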

Additional observations from a re-analysis of the deposited data

Results flagged for a closer look

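In groups of 4 libraries, a library was singled out where its gap to the nearest of the others took up more of the group's range than Dixon's critical value for 4 samples allows. Of 145 such groups, 14 passed, and chance alone gives about 1 in 20.

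KO naïve replicate 3 was singled out for 4 genes, each time as the highest of its group. It had 1943 normalized counts of Atg5 against 1212 to 1331 in the other KO naïve libraries, 1369.7 of Atg7 against 827 to 886, 5339 of Gabarap against 3212 to 3356, and 529 of Snap29 against 185 to 241. This library also had the group's highest share of microglial markers (3.28%). Its shares of rod markers (1.20%) and of Y chromosome markers (0.000701%) were the group's lowest. The part of these shares in the values was not tested. All 4 genes were called after ONC in KO mice, with that library in the fit.

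Among genes with a large spread within groups, Map1lc3a was at 1826 in KO naïve replicate 1 (227 to 412 in the others) and at 1508 in KO ONC replicate 1 (229 to 412), and Atg3 was at 678 in WT naïve replicate 4 (178 to 258). KO ONC replicate 3 was high for Vps33a (4219.6 against 3083 to 3250) and for Gabarapl2 (3231 against 2998 to 3028). Ambra1 was high in KO IOP replicate 3 (2194 against 1508 to 1567) and Atg14 in WT naïve replicate 1 (1401 against 1209 to 1241). Vmp1 was low in KO naïve replicate 2 (2212 against 3008 to 3128), and Gabarap in WT IOP replicate 3 (4836 against 5866 to 6015). The mean log2 value of the 51 genes was highest within its group in WT IOP replicate 2, at 10.40 against 10.30 to 10.31.

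The response to IOP elevation differed between KO and WT mice, by the interaction term in limma, for Becn1 (1.17 on the log2 scale), Snap29 (1.34) and Vps33a (0.81). The KO IOP libraries also stood apart by Cx3cr1 (952 to 1233 normalized counts, against 9417 or more elsewhere), whose part was not tested. Becn1, Snap29 and Vps33a each had a positive fold change in KO mice and a negative one in WT mice. Without the libraries under 2% microglial markers the values were 0.69, 0.11 and 0.32, and none was called, nor was any with the rod or the Y chromosome covariate.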

How the results depend on the processing

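The count of members called after ONC in WT mice stayed within 1.5 times under every alternative that kept all libraries or left out the doubted ones, and limma, edgeR and DESeq2 called 0 between KO and WT after IOP elevation and after ONC. The others moved as follows, and the cause was not tested. For WT IOP it was 0 with upper-quartile rescaling, quantile normalization, the compared groups alone or a lens covariate, 0 without KO libraries above 100 for Spp1 or without libraries under 2% microglial markers, and 2 with a rod covariate or DESeq2. For KO ONC it was 1 with a rod covariate and 0 without either set of libraries. For KO IOP it was 1 without the filter or with edgeR, 6 with a lens covariate, and 0 with the compared groups alone, a rod or Y chromosome covariate or without either set of libraries. For KO against WT in naïve retinas it was 1 with quantile normalization or DESeq2, and for the ONC interaction 1 with DESeq2. For the IOP interaction it was 1 with upper-quartile rescaling and 0 with a rod or Y chromosome covariate or without either set. In these counts of 0, from limma, 0 to 14 members had an unadjusted p under 0.05. Atg5 after ONC in KO mice reversed to -0.020 with the rod covariate. Leaving out each library in turn gave 6 to 15 members for WT ONC, 0 to 2 for WT IOP, 8 to 14 for KO ONC, 0 to 6 for KO IOP, 0 to 5, 0 to 0 and 0 to 2 for KO against WT in naïve, IOP and ONC retinas, 0 to 2 for the ONC interaction and 1 to 9 for the IOP interaction. Of the 28 calls, 14 were kept in every such fit. The replicate block, although numbers did not pair libraries, gave 9, 1, 12 and 2 members for WT ONC, WT IOP, KO ONC and KO IOP, 3 for the IOP interaction and 0 for the others, with 26 of the 28 calls kept and Plekhm1 in WT ONC and Snap29 in the IOP interaction lost and Rab7 in that interaction gained (7 of 23 libraries correlated best with their own number). Quantile normalization moved the median of all genes by 0.106 in KO ONC, 0.115 in KO IOP and 0.104 in the IOP interaction, upper-quartile rescaling by -0.114 in WT ONC and -0.109 in the IOP interaction, and DESeq2 by -0.11 in the ONC interaction. The split of higher against lower members was 8 to 4 with DESeq2 in WT ONC, and with quantile normalization 1 to 2 in KO IOP and 2 to 1 in the IOP interaction. The covariates differ between groups (58.1% of rod, 85.5% of lens and 56.4% of Y chromosome variance), so their adjustment cannot be told apart from the groups, and KO IOP libraries had Ddx3y at or below 3.05. A lone library left in a group was assumed to vary like the other groups. The lens and Y chromosome covariates and both library sets were chosen after seeing the data. Depth limited no member, as all were above 10 normalized counts.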
